A study of Mus musculus with 4 samples.

Results

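The manchette and spermatid LINC complex genes examined here were Hook1, Azi1, Rimbp3, Meig1, Sun1, Sun2, Sun3, Spag4 and Spag4l, a set of 9 named for their place in spermatid head shaping. A gene was taken when its symbol stood in the deposited FPKM lists, which gave 8 genes of 22311. The symbol Spag4l was not in the lists, and RefSeq gives it as a synonym of Sun5, so the entry Sun5 is described beside the 8 genes and is not counted with them. RNA came from whole testes of 24-day-old (P24) male mice, 2 Rfx2 mutant (rfx2-/-) and 2 control samples. The mutant allele, from 1 targeted embryonic stem cell clone, lacks exons 6 and 7 of Rfx2 in every cell of the animal. The sample labels call the controls wild type and the strain DBA, while the study's methods call the controls heterozygous and the background mixed 129/s6 and C57BL/6. No other allele or agent is named for either group. Expression was measured as FPKM, fragments per kilobase of transcript and per M (mega) of mapped fragments, so levels can be compared between genes per unit of length.

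The manchette is a transient skirt of microtubules that encircles the spermatid nucleus while the head is shaped and elongated, and it also serves as a track for cargo bound for the growing tail. LINC complexes span the nuclear envelope: a SUN-domain protein of the inner nuclear membrane is joined to a KASH-domain protein of the outer membrane, which in turn contacts the cytoskeleton. In spermatids the complexes built on SUN3, SPAG4 (SUN4) and SUN5 sit next to the manchette or at the attachment of the tail, whereas SUN1 and SUN2 are found in most cell types and tether telomeres to the nuclear envelope in meiosis.

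The confidence bounds of the deposited values correspond to between 17.2 and 20.3 M fragments per sample, if counting error alone set the bounds. These numbers are inferred and are not read counts, and the study states higher read numbers for each sample. Rfx2 itself measured 36.7 and 39.8 FPKM in mutant 1 and mutant 2, against 123 and 89.4 FPKM in control 1 and control 2. Every listed marker found for spermatogonia, spermatocytes, round spermatids, elongating spermatids, Sertoli cells, Leydig cells and macrophages was above 0 in each sample. Mutant 1 stood apart in the 11 elongating spermatid markers, whose summed FPKM was 1531 in mutant 1, 7123 in mutant 2, 8365 in control 1 and 5718 in control 2. The study saw no elongating spermatids in mutant testes at a later age. By RT-PCR it found no difference in RNA of transition protein and protamine genes. These sums therefore follow RNA of the listed genes and do not count elongating spermatids. In a whole testis, fewer cells of a type and less RNA per cell cannot be told apart.

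In control testes the genes ran from Meig1 at the top to Sun2 at the bottom. Meig1, which encodes a small protein needed to bring cargo to the manchette, was the highest at 890 ± 137 FPKM (SD, n = 2). Rimbp3 and Spag4 followed at 99.6 ± 22.5 and 94.4 ± 10.4 FPKM, and their control samples overlapped. Hook1 came next at 59.3 ± 3.63 FPKM, below both control samples of Spag4. Sun1 (31.0 ± 2.32 FPKM) and Sun3 (29.4 ± 3.23 FPKM) overlapped each other. Azi1 was lower at 19.4 ± 2.64 FPKM, and Sun2 was the lowest at 11.7 ± 1.77 FPKM. Sun5 measured 50.2 ± 12.1 FPKM, between Hook1 and Sun1 by its mean, with control samples that overlapped those of Hook1. In mutant testes Azi1 took the lowest place, under Sun2. Under the same assumption, the bounds of these entries correspond to between 391 and 18779 fragments for a gene in a sample. The fewest were for Azi1 in mutant 2 and the most for the long single exon of Rimbp3 in control 1.

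**Figure D1:**
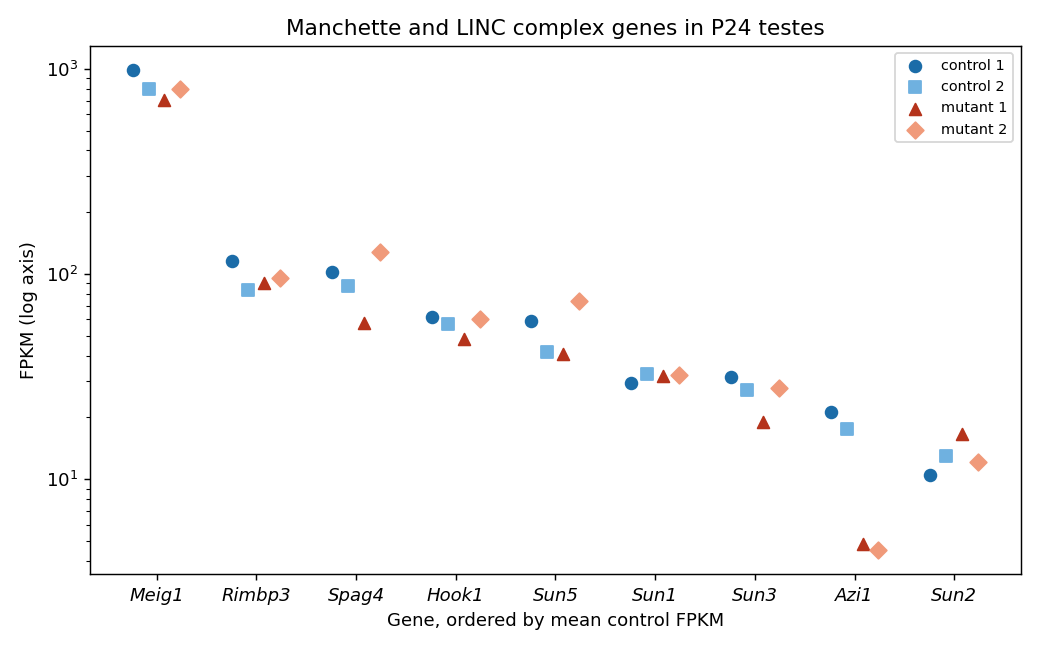
FPKM of each gene in the 4 samples (log axis), ordered by mean control FPKM, with 1 point per sample and no averaging. Meig1 lies far above the other genes, the mutant points of Azi1 (4.50 and 4.81) lie far below its control points (17.5 and 21.2), and for the other genes the genotypes overlap or, for Meig1, touch.

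Of the 8 genes, Azi1 was the only one that passed the test between genotypes, and it fell to 24.1% of its mean control level. The comparison of mutant and control samples used limma on log2(FPKM + 1) for all 12985 genes that reached 1 FPKM in 2 or more samples, and p-values adjusted by Benjamini-Hochberg were called under 0.05. All 8 genes passed that filter. One gene was called lower, which is 12.5% of the set, where 2.52% of all genes tested were called lower. None was called higher, where 0.308% of all genes tested were, and none was higher at an unadjusted p under 0.05, where 261 of the 12985 genes were. For 2 genes, Azi1 and Meig1, the higher mutant value was under the lower control value, and for 0 genes the lower mutant value was above the higher control value. Of all genes tested, 15.2% lay wholly below in this sense and 16.3% wholly above. Over the 8 genes the log2 fold change had a median of -0.13, beside 0.03 for all genes tested. The set was chosen with earlier results of these data known, so these shares and medians do not test it. With 2 samples in each group, an exact permutation test of a single gene cannot give a two-sided p below 0.333.

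**Figure D2:**
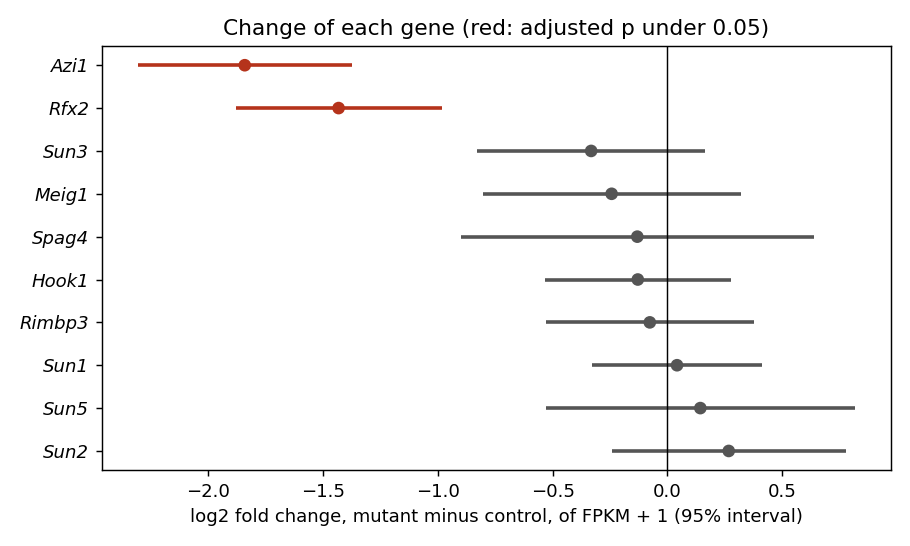
log2 fold change of FPKM + 1, mutant minus control, with its 95% interval from limma, for the 8 genes, for Sun5 and for the targeted gene Rfx2. The intervals of Azi1 (-2.31 to -1.38) and Rfx2 (-1.88 to -0.98) lie below 0, and those of the other genes include 0.

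Azi1, now named Cep131, encodes a centrosomal and centriolar satellite protein that in spermatids is found on the manchette and is needed for the sperm tail. Its FPKM of 4.81 in mutant 1 and 4.50 in mutant 2 stood far under the 21.2 of control 1 and the 17.5 of control 2. The groups were far apart, and the mutant samples differed less from each other than the control samples did. The deposited confidence bounds were 4.38 to 5.25 and 4.05 to 4.96 in the mutant samples, and 20.3 to 22.2 and 16.7 to 18.3 in the control samples. On the log2 scale the fitted change was -1.84 (SE 0.20, 95% interval -2.31 to -1.38, adjusted p = 0.00215 in limma), and it ranked 119 of the 12985 genes by p. The fall was also present with any 1 sample left out. It was -1.88 without mutant 1, -1.80 without mutant 2, -1.71 without control 1 and -1.97 without control 2. The part of spermatid number or stage in the Azi1 values was not tested. When each sample was centred on the mean of the 10 round spermatid markers the log2 fold change was -1.77, but the adjusted p was 0.690. That centring also reduced the genes called lower from 327 to 95.

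The gene Azi1 spans chr11:119925744-119948141 (minus strand) of NCBIM37, which is mm9, with 2 protein-coding transcripts of 26 exons in GENCODE M1. The only other annotated gene that overlaps it is a miRNA on the same strand, which is not in the FPKM lists. RFX factors bind the X-box, a motif of a left and a right arm separated by a gap of 0 to 3 bases. No X-box without mismatch lay within 1000 bases of the outermost start annotated for any of the 8 genes, on either strand, nor near any of their other annotated starts. Such a match lay near 4.604% of the 12728 tested genes with an annotated start, and near 16.4% of the 311 of them called lower. The absence of a match says only that these letters are not in this window. The 250 bases upstream of the start are shown for Azi1, the gene that fell, and for Hook1 and Meig1, manchette genes that did not pass the test. They read 5′ to 3′ on the strand of the gene in NCBIM37, and capitals mark CCAAT or its reverse complement ATTGG, a common promoter element.
Azi1 (chr11:119948142-119948391, minus strand): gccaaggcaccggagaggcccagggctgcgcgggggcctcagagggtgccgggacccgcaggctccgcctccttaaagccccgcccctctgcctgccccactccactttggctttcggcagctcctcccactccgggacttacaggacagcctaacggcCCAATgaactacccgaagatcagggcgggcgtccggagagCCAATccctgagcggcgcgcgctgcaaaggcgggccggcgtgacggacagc
Hook1 (chr4:95633681-95633930, plus strand): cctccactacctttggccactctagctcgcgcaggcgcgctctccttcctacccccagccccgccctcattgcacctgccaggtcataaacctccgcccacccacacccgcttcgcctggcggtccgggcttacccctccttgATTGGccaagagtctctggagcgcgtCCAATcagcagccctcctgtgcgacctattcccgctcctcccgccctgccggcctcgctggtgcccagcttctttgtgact
Meig1 (chr2:3339921-3340170, minus strand): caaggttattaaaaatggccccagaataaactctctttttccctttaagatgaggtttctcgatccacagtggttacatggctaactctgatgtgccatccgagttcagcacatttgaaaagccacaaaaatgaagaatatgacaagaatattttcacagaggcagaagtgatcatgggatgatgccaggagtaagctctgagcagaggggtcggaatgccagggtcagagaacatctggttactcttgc
Azi1 and Hook1 each held 2 such matches and Meig1 held 0. Matches were also found upstream of Sun1 and Sun2 (2 each) and Sun3 (1), but not of Rimbp3 or Spag4, which made 5 of the 8 genes. Of all tested genes with an annotated start, 36.2% held at least 1. The G and C content of the same 250 bases was 70.0% for Azi1 and Sun1, 70.8% for Sun2, 65.6% for Hook1 and 58.4% for Sun3, against 46.8% for Spag4, 43.6% for Meig1 and 38.4% for Rimbp3. The median of all tested genes was 58.4%.

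With 1 mismatch allowed, a match to the X-box lay within 1000 bases of the start of 5 of the 8 genes (62.5%). The share was 47.9% of all tested genes with an annotated start, and 71.1% of those called lower. Azi1, Rimbp3 and Sun2 had none. The match of each of the 5 genes, or the one nearest to the start where there was more than 1, is shown. Each reads 5′ to 3′ along the motif, and capitals mark the matched bases.
Hook1 (match at chr4:95633543-95633555): gaaccacGTGACCAAGAAACgtgtttc
Sun1 (match at chr5:139676816-139676828): ggcgcgcGCGGCCTGGCAACgcgaagg
Sun3 (match at chr11:8948575-8948588): agcacgcGTCTCCAGGGCAACggccagg
Spag4 (match at chr2:155891375-155891387): accgcctGTGGCGCGGCAACcgtgagg
Meig1 (match at chr2:3339557-3339571): tcaagttGTCACTGTAAGCAACatgcatg
Counted from the start site, the match of Hook1 lay upstream at -388 to -376 and those of the other genes downstream, at 225 to 237 in Sun1, 406 to 419 in Sun3, 464 to 476 in Spag4 and 349 to 363 in Meig1. None of these 5 genes passed the test between genotypes, and a tie between X-box matches and the changes of the 8 genes was not tested.

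Hook1, Rimbp3 and Meig1, the other manchette genes, did not pass the test, and their means in mutant testes were 91.8%, 93.6% and 84.2% of the control means. Hook1, mutated in the azh mouse with abnormal sperm heads, encodes a linker between microtubules and their cargo. It measured 48.4 FPKM in mutant 1 and 60.4 FPKM in mutant 2, against 61.9 and 56.7 FPKM in control 1 and control 2. Mutant 1 was the lowest, and mutant 2 lay between the control samples. The log2 fold change was -0.13 (95% interval -0.53 to 0.28, adjusted p = 1.0 in limma), and without mutant 1 it was 0.028. Hook1 lies on chromosome 4 from 95633931 to 95692104, and a lincRNA on the opposite strand overlaps its first 416 bases.

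Rimbp3, which encodes a manchette-bound protein that interacts with HOOK1, measured 90.6 and 96.0 FPKM in mutant 1 and mutant 2 and 116 and 83.7 FPKM in control 1 and control 2. Both mutant samples lay between the control samples. Its log2 fold change was -0.08 (95% interval -0.53 to 0.38), and the control samples differed from each other more than the genotypes did. Rimbp3 is a gene of 1 exon on chromosome 16 from 17208228 to 17214064.

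Meig1 measured 705 FPKM in mutant 1 and 793 FPKM in mutant 2, against 987 FPKM in control 1 and 793 FPKM in control 2. The groups did not overlap only because mutant 2 (792.66 FPKM) lay barely under control 2 (792.71 FPKM). Its fitted log2 change was -0.24 (SE 0.24, 95% interval -0.80 to 0.32, adjusted p = 1.0 in limma). Spag16, whose protein MEIG1 helps to carry along the manchette, measured 72.8 and 68.9 FPKM in mutant testes against 101 and 73.7 FPKM in control testes (log2 fold change -0.28, adjusted p = 1.0 in limma). Both genes had fitted changes below 0 that were within the spread between replicates. Meig1 lies on chromosome 2 from 3326315 to 3339920.

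The SUN-domain genes did not pass the test in either direction, but the spermatid forms differed between the mutant samples. Spag4 encodes the spermatid protein SUN4, which lines the nuclear envelope along the manchette. It measured 57.6 FPKM in mutant 1, the lowest of the 4 samples, and 128 FPKM in mutant 2, the highest, against 102 and 87.1 FPKM in control 1 and control 2. Mutant 2 was thus 2.22-fold above mutant 1, while the control samples lay close together between them. The log2 fold change of -0.13 (SE 0.33, 95% interval -0.90 to 0.64) was an average of these opposite values. It was 0.44 without mutant 1 (adjusted p = 0.718) and -0.70 without mutant 2 (adjusted p = 0.0401 in limma), so 1 library decides its sign and its call.

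Sun3 encodes a spermatid SUN protein of the same region of the envelope. It measured 19.03 FPKM in mutant 1 and 27.9 FPKM in mutant 2, against 31.6 FPKM in control 1 and 27.1 FPKM in control 2. Mutant 1 lay under both control samples, and mutant 2 lay between them. Its log2 fold change was -0.33 (95% interval -0.83 to 0.17, adjusted p = 1.0 in limma), and -0.07 without mutant 1. Its first 398 bases overlap the start of Gm11992 on the opposite strand, whose FPKM was 23.1 to 24.3 in the mutant and 23.9 to 25.8 in the control samples. The sources used here do not state whether counting used the strand, so reads in that overlap cannot be told apart. Sun5 encodes the SUN protein at the junction of sperm head and tail. Its FPKM was 40.7 in mutant 1, 73.7 in mutant 2, 58.8 in control 1 and 41.6 in control 2, so mutant 1 was the lowest and mutant 2 the highest, as for Spag4. The log2 fold change of Sun5 was 0.14 (95% interval -0.53 to 0.82), and it was -0.28 without mutant 2 and -0.10 without control 2.

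Sun1 was the steadiest gene of the set, at 31.7 and 32.1 FPKM in mutant 1 and mutant 2 and 29.4 and 32.7 FPKM in control 1 and control 2. Both mutant samples lay between the control samples. Its log2 fold change was 0.04 (95% interval -0.33 to 0.41), and that interval does not reach the interval of Azi1. Sun2 measured 16.7 FPKM in mutant 1 and 12.2 FPKM in mutant 2, against 10.5 FPKM in control 1 and 13.0 FPKM in control 2. Here mutant 1 was the highest sample and mutant 2 lay between the control samples, the reverse of the order seen for the spermatid genes. The log2 fold change of Sun2 was 0.27 (95% interval -0.24 to 0.78, adjusted p = 1.0 in limma). Sun1 lies on chromosome 5 from 139676591 to 139725794 with 14 protein-coding transcripts, which the gene-level values do not separate. Sun2 lies on chromosome 15 from 79554500 to 79572966, Sun3 on chromosome 11 from 8916057 to 8948994, Spag4 on chromosome 2 from 155890911 to 155896353 and Sun5 on chromosome 2 from 153681924 to 153696820. The lincRNA Gm16575, on the opposite strand and not in the FPKM lists, overlaps Sun2 by 2225 bases. As for Sun3, reads in that overlap cannot be told apart.

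Of the 8 genes, 6 were lower in mutant 1 than in mutant 2, as were 31.9% of all genes tested, and Azi1 and Sun2 were the exceptions. As a percentage of the control mean, mutant 1 and mutant 2 stood at 61.0% and 135% for Spag4, at 64.8% and 94.96% for Sun3, at 81.7% and 102% for Hook1 and at 79.2% and 89.1% for Meig1. Rimbp3 (90.9% and 96.3%) and Sun1 (102% and 104%) differed little between the mutant samples. Sun5 stood at 81.0% and 147%. The summed round spermatid markers stood at 79.4% in mutant 1 and 129% in mutant 2, and the summed elongating spermatid markers at 21.7% and 101%. Single round spermatid markers did not move alike in mutant 1. Zpbp2 gave 200 of their 635 FPKM there, against 194 and 173 FPKM in control 1 and control 2. Zpbp (56.7 FPKM) lay between the control samples (61.2 and 53.1 FPKM). Hspa1l measured 18.4 FPKM, against 76.5 and 62.1 FPKM. The summed spermatocyte markers stood at 102% and 99.4%, but Ldhc alone gave 2379 of their 3388 FPKM in mutant 1. Single spermatocyte markers went both ways in mutant 1. Pgk2 measured 123 FPKM there, against 225 and 195 FPKM in control 1 and control 2. Sycp3 measured 203 FPKM, against 152 and 177 FPKM. Sun2 stood at 142% and 104%, beside 122% and 103% for the Sertoli cell, 117% and 93.9% for the spermatogonia, 166% and 93.2% for the Leydig cell and 93.4% and 66.8% for the macrophage markers. The control samples themselves stood apart in these markers, with the Sertoli cell markers at 80.4% and 120% and the Leydig cell markers at 146% and 53.6%. Insl3 alone gave 326 of the 418 FPKM of the Leydig cell sum in mutant 1, and measured 266 and 51.5 FPKM in control 1 and control 2. The other Leydig cell markers had no common direction in mutant 1. Hsd3b1 was lower there (20.9 FPKM against 31.0 and 32.8 FPKM) and Cyp17a1 higher (32.5 FPKM against 30.6 and 20.2 FPKM). The part of Sertoli cells, spermatogonia, Leydig cells and macrophages in the values of Sun2 was not tested. Azi1 stood at 24.8% in mutant 1 and 23.3% in mutant 2. The part of spermatid number or stage in the values of Azi1, Spag4, Sun3, Sun5, Hook1 and Meig1 was not tested.

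**Figure D3:**
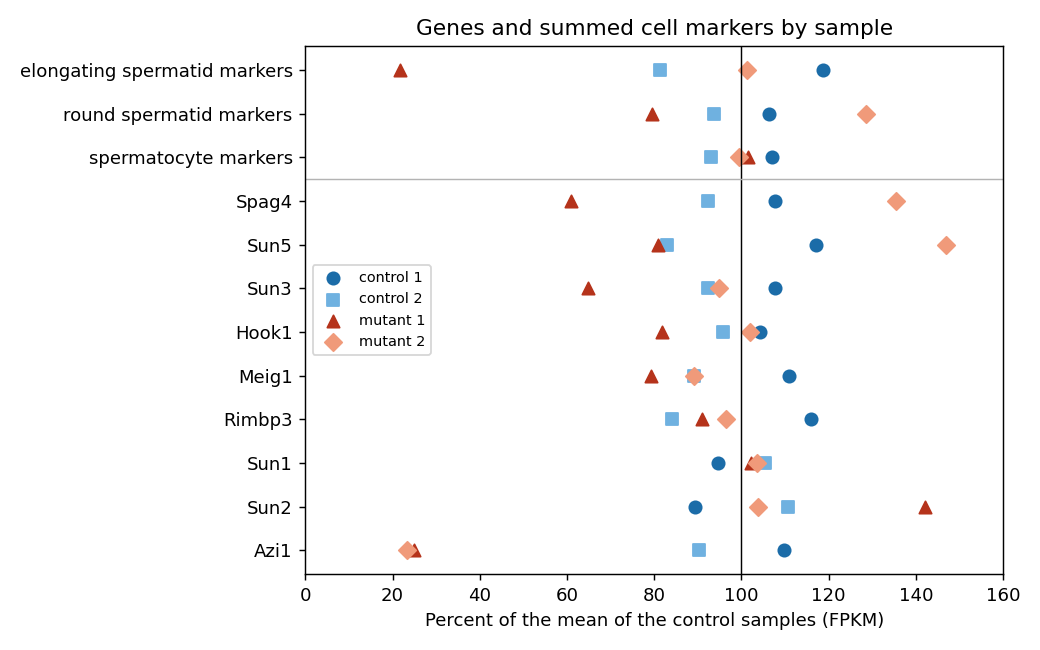
Each sample's FPKM as a percentage of the mean of the control samples, for the summed markers of 3 germ cell stages (above the line) and for each gene (below it). Mutant 1 lies left of the control samples for the elongating spermatid markers (21.7%), Spag4 (61.0%) and Sun3 (64.8%), while both mutant samples of Azi1 lie near 24%.

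Other genes of the manchette and of transport along it were taken from a list of 40 genes found in the files, of which 39 passed the filter. Mutant testes had 5 of them lower (12.8%, beside 2.52% of all genes tested), 0 were higher and 34 did not pass the test. At an unadjusted p under 0.05, 6 were lower and 1 was higher. The list was chosen with earlier results of these data known, so these shares do not test it. The 39 genes had a median log2 change of -0.03, beside 0.03 over all genes tested. The listed symbol Sept12 was not found. An entry named 12-Sep, which may be that gene, was not counted with the list (log2 fold change 0.008). The 5 lower genes were Ccdc42, Spef2, Dnali1, Katnal1 and Rab27a. Ccdc42, needed for formation of the sperm head and tail, measured 0.605 and 0.540 FPKM against 94.0 and 61.1 FPKM and changed by -5.61 on the log2 scale (adjusted p = 2.61e-05 in limma). Spef2, a central pair protein that also travels on the manchette, and Dnali1, an inner dynein arm light chain, had log2 fold changes of -2.65 and -2.04. Ccdc42 and Spef2 passed the filter through their control samples alone, so they had to differ to be tested. Their fitted changes depend on the pseudocount, and with 0.01 in place of 1 they were -7.03 and -4.95. The study itself selected Spef2 and Dnali1 on these samples, so their values here are not independent evidence of a direction. The study also reported both genes as lower by real-time PCR of individual testes. Katnal1, a microtubule-severing katanin subunit, measured 4.94 and 4.38 FPKM in mutant 1 and mutant 2 and 18.4 and 16.7 FPKM in control 1 and control 2. The fitted change was -1.71 (SE 0.20 on the log2 scale, adjusted p = 0.00260 in limma), close in level and in size to that of Azi1, and its adjusted p was 0.0575 without control 1 and 1.0 when centred on the round spermatid markers. The small GTPase gene Rab27a, of vesicle transport, measured 1.79 and 1.26 FPKM against 5.82 and 6.21 FPKM (log2 fold change -1.48, adjusted p = 0.0101 in limma). The adjusted p of Rab27a was 0.0817 without control 1, 0.101 without control 2, 0.0893 without a filter and 1.0 when centred on the round spermatid markers. Dnali1 had an adjusted p of 0.0841 with that centring.

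Below the threshold, the gene listed as 4930455F23Rik, now Ccdc181, whose protein binds microtubules of the manchette and flagellum, measured 116 and 117 FPKM against 213 and 183 FPKM (log2 fold change -0.75, adjusted p = 0.0754 in limma). Mns1, of the flagellar axoneme, measured 313 and 308 FPKM against 246 and 203 FPKM (log2 fold change 0.47, adjusted p = 0.497 in limma). For each gene both mutant samples lay on one side of the control samples. Neither passed the test, although 4930455F23Rik did with robust eBayes (adjusted p = 0.0189 in limma).

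Partners of the SUN proteins and other nuclear envelope genes formed a second list of 21 genes, all of which passed the filter. In mutant testes 1 gene was lower (4.76%, beside 2.52% of all genes tested), 0 were higher and 20 did not pass the test. At an unadjusted p under 0.05, 2 were lower and 0 were higher, and the median log2 change was -0.08. This list too was chosen with earlier results of these data known, so its share does not test it. The lower gene was Dpy19l2, whose protein anchors the acrosome to the inner nuclear membrane. It measured 30.0 and 23.3 FPKM in mutant 1 and mutant 2 against 62.9 and 56.5 FPKM in control 1 and control 2 (fitted log2 change -1.14 with SE 0.18, adjusted p = 0.0145 in limma). The groups were well apart, but the adjusted p was 0.209 without control 1, 0.120 without control 2 and 0.0505 with median-ratio scaling of the samples. Lmna, which encodes the A-type lamins, measured 9.24 and 6.29 FPKM against 13.5 and 10.9 FPKM (log2 fold change -0.61, adjusted p = 0.461 in limma). The clone symbol 4831426I19Rik, for the KASH protein nesprin-3, stood at 1.57 and 1.79 FPKM against 2.26 and 2.79 FPKM (log2 fold change -0.39, adjusted p = 0.815 in limma). Syne1 and Syne2, the large nesprins, had log2 fold changes of -0.11 and -0.14 (adjusted p = 1.0 in limma for both).

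**Figure D4:**
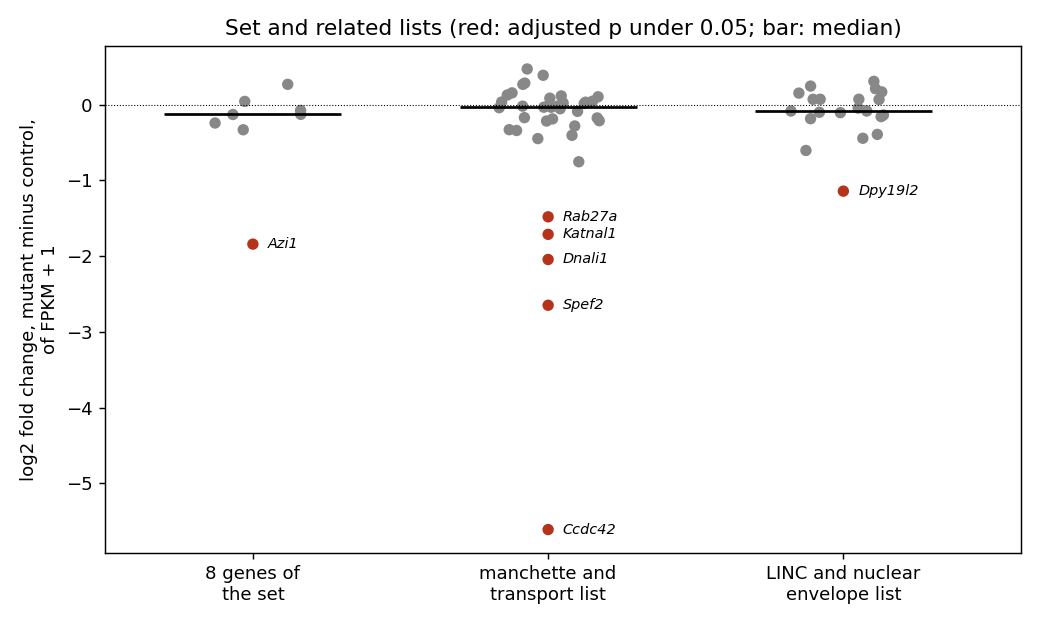
log2 fold change of FPKM + 1, mutant minus control, of the 8 genes, of the manchette and transport list and of the LINC and nuclear envelope list, with 1 point per gene and a bar at each median (-0.13, -0.03 and -0.08). The named red points, Azi1, the 5 manchette and transport genes and Dpy19l2, lie below the grey points that did not pass the test.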

How the data were processed

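RNA of 4 testis samples was sequenced. Per the study's methods, alignment used TopHat 2.0.6 and mm9, Cufflinks gave expression, and the authors deposited 1 list per sample of FPKM values with confidence bounds. Values are normalized by gene length and depth within a sample, and depth enters only through the bounds, taken as 2 SD from the estimate. Entries that share a symbol were summed, giving 22311 genes. Mutant and control samples were compared in limma 3.58.1 under R 4.3.3 on log2(FPKM + 1), two-sided, with a mean-variance trend and 2 residual degrees of freedom among samples. A fold change on this scale understates that of low genes. The functions were tested on simulated data. The labels do not say whether samples came from separate animals, although the methods call them biological replicates. The 9 genes, both lists and the markers were chosen with earlier results of these data known. Named list genes are those with an adjusted p under 0.05 and, per list, the 2 others with the lowest p. Spag16, Syne1, Syne2 and Gm11992 were added for their tie to a gene of the set after their values were seen. Positions, starts and sequences came from GENCODE M1 on NCBIM37. The study's Cuffdiff test pooled the replicates and was not repeated here. Patterns were not ranked for likeness, since 4 samples cannot separate them. One result is not reported here.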

Additional observations from a re-analysis of the deposited data

How the results depend on the processing

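The settings tried were pseudocounts of 0.1 and 0.01, no filter, a filter at 5 FPKM, median-ratio scaling, quantile normalization, centring on the round spermatid markers, robust eBayes, eBayes without its trend, the labels' replicate block, the highest entry in place of the sum and each sample left out, 16 with a crossed replicate block that was chosen after seeing the data. The log2 fold change of Azi1 ran from -2.05 to -1.71, and its adjusted p was under 0.05 in 15 of the 16 and 0.690 when centred on the round spermatid markers. That centring gave 0 genes of the set called lower, 2 and 0 genes of the manchette and LINC lists, and 95 lower and 4 higher among all genes. The 2 were Ccdc42 and Spef2, which passed the filter through their control samples alone. Of all genes, 327 were lower and 40 higher as reported. Without a filter these were 199 and 17, at 5 FPKM 202 and 17, with median-ratio scaling 216 and 16, and with robust eBayes 67 were higher. The called gene of the LINC list was lost (0 called) without a filter, with median-ratio scaling, with quantile normalization and with the crossed replicate block. Replicate numbers were only shared by label: across 12985 genes, the deviations of samples with 1 number correlated at r = -0.15. The replicate block gave 525 lower and 70 higher genes, and called 4930455F23Rik (adjusted p = 0.0418), but changed no other call of a named gene. With a sample left out, where a lone sample of a group is taken to vary like the other group, the numbers ran from 79 to 944 lower and from 10 to 138 higher genes, from 1 to 2 for the set, from 1 to 6 for the manchette list and from 0 to 2 for the LINC list. Fewer genes pass the filter of 2 samples there, Ccdc42 and Spef2 among those lost when a control is left out. Signs turned only in such fits, and only for genes that did not pass the test: Hook1 (0.028) and Spag4 (0.44) without mutant 1, Sun5 without mutant 2 (-0.28) and without control 2 (-0.10), and Rimbp3 (0.15) and Sun1 (-0.031) without control 1. At the other end of the range were -0.28 for Hook1 and -0.70 for Spag4 without mutant 2, 0.57 for Sun5 without mutant 1, and -0.31 for Rimbp3 and 0.12 for Sun1 without control 2. The fewest fragments inferred from the bounds for a value of the set were 391, if counting error alone set the bounds. The deposited bounds hold within 1 sample only.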
